A study of Homo sapiens with 8 samples.

Results

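SLC7A8 and 9 other plasma membrane amino acid transporter genes were examined in the ovarian cancer cell line UWB1.289. The genes were taken from the deposited count table by symbol, and all 10 were found among its 25369 named genes. They were SLC7A1, SLC7A2, SLC7A5, SLC7A6, SLC7A7, SLC7A8, SLC7A11, SLC3A2, SLC1A4 and SLC1A5. SLC7A8 was chosen by its measured rise with entinostat in BRCA1-null cells, where it is a leading induced gene, and the other 9 were added for their kinship with it, so no member's value in that comparison is tested. All 10 genes passed the filter on low counts, as did 17714 genes in all.

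Poly(A) RNA was sequenced from 4 groups of 2 libraries. BRCA1-null cells are UWB1.289 itself, which carries a truncating BRCA1 mutation, and BRCA1+ cells are the derived line into which BRCA1 was introduced, so the 2 lines also differ in their history of transfection and selection and each is 1 line. The drug was entinostat at 0.5 uM for 24 h, a histone deacetylase inhibitor that acts on HDAC1 and HDAC3, and control cultures of either line received its vehicle DMSO. The labels do not say whether libraries of a group came from separate cultures, so p-values measure only the spread between these libraries, which may be technical.

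Library totals ranged from 31900158 to 53549893 counts, and replicates correlated at 0.991 to 0.992 across genes (Pearson's r of log2 CPM, with genes not being independent replicates). CPM are counts per 1e+06 of the scaled library size. BRCA1 lay between 92.4 and 133 CPM in the 4 libraries labelled BRCA1+ and between 17.6 and 22.4 CPM in the 4 labelled BRCA1-null, without overlap. All 6 epithelial markers (such as EPCAM and KRT8) were above 1 CPM in every group, as were 4 of 6 markers of Mullerian ovarian carcinoma, including PAX8 but not WT1 and ESR1. Of 6 leukocyte markers LST1 was at 0 in every library, PTPRC (CD45) held 93 to 214 counts and CD14 20 to 201. Their summed level was 5.85 to 8.41 CPM in DMSO and 10.3 to 10.4 in entinostat in BRCA1+ cells, against 3.18 to 6.09 and 4.48 to 6.51 CPM in BRCA1-null cells. Of the fibroblast markers COL3A1, DCN and LUM were at 0, while COL1A1 ranged from 4.07 to 22.2 CPM and COL1A2 from 8.87 to 37.0 CPM. The summed level of 5 endothelial markers differed between groups. In BRCA1+ cells it was 9.58 to 16.3 CPM in DMSO and 27.4 to 38.5 in entinostat, while BRCA1-null cells had 36.8 to 54.4 in DMSO and 75.4 to 93.1 in entinostat. CDH5 made up most of that sum in the 6 libraries outside BRCA1+ control. The summed level of 6 fibroblast markers ranged from 12.9 to 17.8, 26.4 to 34.1, 29.8 to 44.3 and 40.9 to 59.6 CPM in the same order. The part of these markers in the results was not tested. In bulk RNA, fewer cells that express a gene and less of its RNA per cell cannot be told apart.

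Many of these transporters work as pairs of chains. The glycoprotein SLC3A2 (4F2hc, CD98) is the heavy chain that carries a light chain to the plasma membrane, and the light chain moves the amino acids. SLC7A5 (LAT1) and SLC7A8 (LAT2) are the light chains for large neutral amino acids such as leucine, SLC7A6 (y+LAT2) and SLC7A7 (y+LAT1) exchange cationic against neutral amino acids, and SLC7A11 (xCT) takes up cystine in exchange for glutamate. SLC7A1 (CAT1) and SLC7A2 (CAT2) carry cationic amino acids such as arginine without a heavy chain, and SLC1A4 (ASCT1) and SLC1A5 (ASCT2) exchange small neutral amino acids, SLC1A5 being a main route of glutamine entry. LAT1, xCT and ASCT2 are widely studied in cancer as suppliers of essential amino acids, cystine and glutamine.

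SLC7A8 lies on chromosome 14 at 23594504 to 23652869 (minus strand of hg19). SLC7A7 lies on the same chromosome and strand at 23242432 to 23289020, with other tested genes between them, such as MRPL52 and C14orf119. SLC7A8 and SLC7A7 were the 2 transporters with higher means under entinostat in both lines. SLC7A5 (chromosome 16, 87863629 to 87903100, minus strand) carries the same kind of substrates as SLC7A8 and had lower means under entinostat in both lines. The rises of SLC7A8 and SLC7A7 did not pass the test in BRCA1+ cells (adjusted p = 0.0741 and 0.184, edgeR). The 250 bases before the deposited start of each gene are shown 5′ to 3′ on the gene's strand from the hg19 reference. Each GC box (GGGCGG, searched on both strands) is in capitals, and a bearing of these bases on direction was not tested. For SLC7A7 the GENCODE annotation lifted to hg19 places the outermost gene start at 23299029, beyond the deposited start, so its stretch lies inside the annotated gene. The stretches are at chr14:23652870-23653119, chr14:23289021-23289270 and chr16:87903101-87903350.
SLC7A8: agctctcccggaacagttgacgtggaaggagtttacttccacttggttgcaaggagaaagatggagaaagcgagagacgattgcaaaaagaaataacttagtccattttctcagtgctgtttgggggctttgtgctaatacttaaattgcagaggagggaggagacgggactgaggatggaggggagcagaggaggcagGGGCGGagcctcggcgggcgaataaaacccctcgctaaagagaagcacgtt
SLC7A7: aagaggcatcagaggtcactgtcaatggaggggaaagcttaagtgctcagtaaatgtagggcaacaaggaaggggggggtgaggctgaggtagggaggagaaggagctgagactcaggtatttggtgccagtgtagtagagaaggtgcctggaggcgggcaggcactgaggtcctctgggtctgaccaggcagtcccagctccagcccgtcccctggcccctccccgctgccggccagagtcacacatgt
SLC7A5: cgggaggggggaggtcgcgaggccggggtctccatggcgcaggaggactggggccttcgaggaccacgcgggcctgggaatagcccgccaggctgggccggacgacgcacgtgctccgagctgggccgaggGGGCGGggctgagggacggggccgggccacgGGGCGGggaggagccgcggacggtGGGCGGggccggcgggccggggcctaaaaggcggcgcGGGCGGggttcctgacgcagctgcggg

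The 3 stretches differ in base composition. The SLC7A5 stretch is 79.6% G or C with 33 CpG and 4 GC boxes, the SLC7A8 stretch 51.2% with 11 CpG and 1 GC box, and the SLC7A7 stretch 60% with 4 CpG and none. Over a window of 250 bases before to 50 bases after the start, the GC content of the 10 genes ran from 43.3% (SLC7A11) to 82% (SLC7A1), against a median of 59.3% over 25051 windows of all named genes. A GC box was in 8 of 10 windows, the exceptions being SLC7A7 and SLC1A4, and in 49% of all windows. The windows of SLC7A8 and of SLC3A2, which was called lower with entinostat in BRCA1+ cells, each had 53% G or C and 1 GC box. That of SLC7A2, called in no comparison tested, had 80.7% and 5 GC boxes. The letters TGATGNAA, the core of the C/EBP-ATF response element that ATF4 binds, were in the windows of SLC7A1 and SLC7A11 and in 3.11% of all windows. In the SLC7A11 window they occur 2 times. The letters TGACNNNGC of the antioxidant response element were in 4 of 10 windows (SLC7A1, SLC7A5, SLC7A6 and SLC7A7) and in 13.5% of all windows. Both strands were searched, matches are letters and not sites of binding, and a gene with several starts is represented by 1 window only.

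SLC7A8 was far lower in BRCA1-null cells and had higher means with entinostat in both lines. Its counts were 1518 and 1389 in BRCA1+ control libraries, or 38.0 and 30.3 CPM. With entinostat, BRCA1+ libraries held 1513 and 2031 counts, or 47.7 and 43.8 CPM. BRCA1-null control libraries held 119 and 112 counts, or 2.62 and 2.06 CPM. BRCA1-null entinostat libraries held 391 and 246 counts, or 8.34 and 5.89 CPM. The 4 groups did not overlap in CPM, and the highest BRCA1-null library lay well under the lowest BRCA1+ library.

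In BRCA1+ cells, whose libraries had no part in putting SLC7A8 forward, the entinostat effect on SLC7A8 was 0.42 ± 0.138 on the log2 scale (SE, 95% interval 0.11 to 0.74). This 1.34-fold difference did not pass the test (adjusted p = 0.0741, quasi-likelihood test of edgeR, adjusted over 17714 genes by the method of Benjamini and Hochberg). It passed the threshold narrowly in some settings, as the adjusted p was 0.0468 with the DESeq2 Wald test and 0.0449 in an edgeR fit of only the BRCA1+ libraries. With the replicate number as a block the adjusted p was 0.00405 (edgeR), but the replicate numbers were not taken as a pairing. The log2 difference was 0.42 without the first or the second BRCA1-null entinostat library. Leaving out 1 library gave log2 differences of 0.27 (without the second BRCA1+ control library, adjusted p = 0.344) to 0.59 (without the first BRCA1+ control library), so that 1 control library moved the value by over 1.5 times. In BRCA1-null cells, the comparison that put it forward, the difference was 1.63 ± 0.238 (SE), or 3.09-fold, and it was 1.34 without the first entinostat library. Between the lines SLC7A8 was 14.7-fold lower in BRCA1-null than in BRCA1+ cells in DMSO, a log2 difference of -3.88 ± 0.196 (SE), and 6.37-fold lower in entinostat, a log2 difference of -2.67 ± 0.165 (SE). These 2 values share libraries with the comparison that put the gene forward and were not tested. After entinostat the mean in BRCA1-null cells, 7.11 ± 1.73 CPM (SD, n = 2), was still below that of untreated BRCA1+ cells, 34.1 ± 5.45 CPM (SD, n = 2). The entinostat effect in BRCA1-null minus that in BRCA1+ cells was 1.20 ± 0.278 on the log2 scale, also given without a test, and 0.92 without the first BRCA1-null entinostat library.

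**Figure D1:**
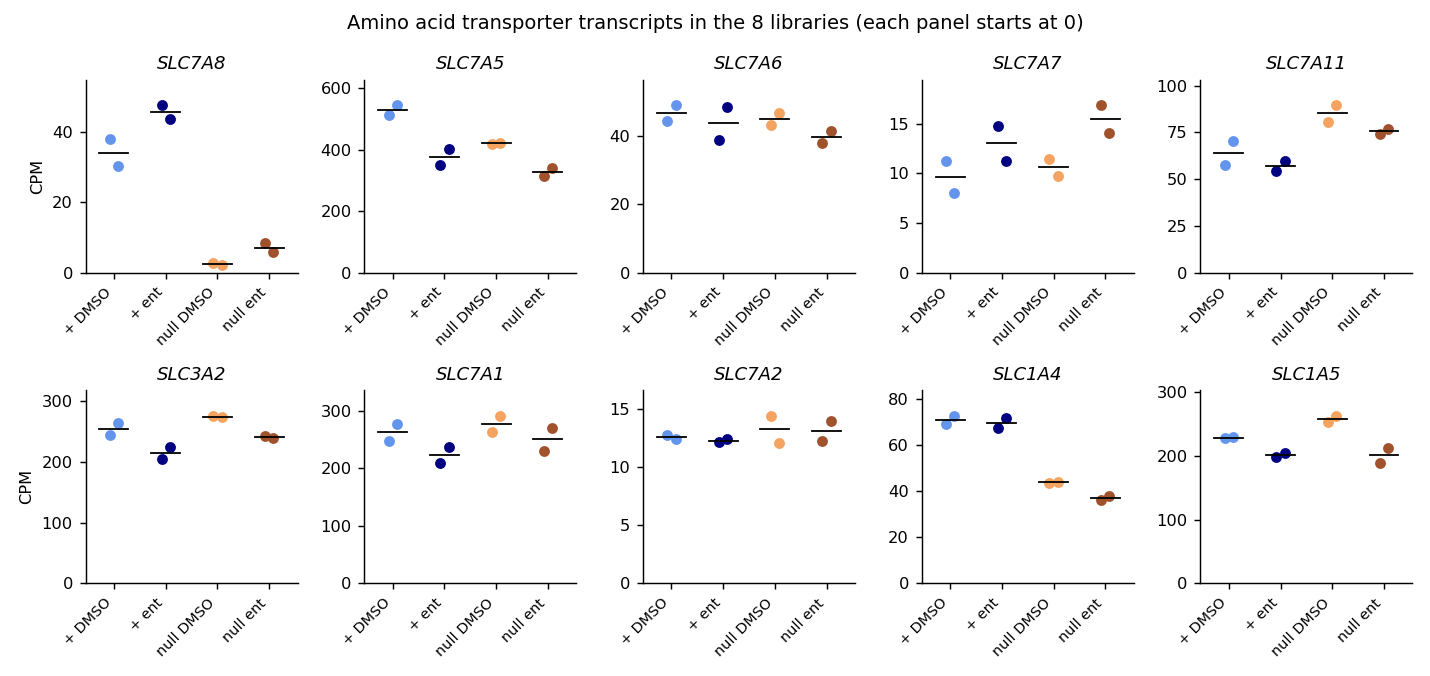
Expression of the 10 transporter genes in CPM (vertical axes, linear from 0, a separate scale per gene) in 4 groups: BRCA1+ in DMSO (+ DMSO), BRCA1+ in entinostat (+ ent), BRCA1-null in DMSO (null DMSO) and BRCA1-null in entinostat (null ent). Each point is 1 library and the bar is the mean of 2, and the SLC7A8 panel shows the 4 BRCA1-null libraries at 2.06 to 8.34 CPM against 30.3 to 47.7 in the 4 BRCA1+ libraries.

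SLC7A5, the other light chain for large neutral amino acids, fell with entinostat in BRCA1+ cells and was lower in BRCA1-null cells in DMSO. It had 513 and 546 CPM in BRCA1+ control libraries and 351 and 402 CPM in BRCA1+ entinostat libraries, which do not overlap. BRCA1-null libraries had 419 and 423 CPM in DMSO and 315 and 341 CPM in entinostat. Entinostat lowered it in BRCA1+ cells by 1.41-fold, a log2 difference of -0.49 ± 0.0725 (SE, adjusted p = 0.00394, edgeR). Its difference was -0.36 ± 0.0725 (SE) in BRCA1-null cells, given as a description. In DMSO it was lower in BRCA1-null than in BRCA1+ cells by 1.26-fold, a log2 difference of -0.33 ± 0.0722 (SE, adjusted p = 0.00549, edgeR). In entinostat the line difference was -0.20 ± 0.0726 (SE), which did not pass (adjusted p = 0.0566, edgeR), although it did with upper-quartile scaling (0.0496), with DESeq2 (0.0379) and without the first BRCA1+ entinostat library (0.0173). Without the second BRCA1+ entinostat library that difference was -0.10 (adjusted p = 0.379, edgeR) and without the first -0.31. The pseudogene copies SLC7A5P1 and SLC7A5P2 on the same chromosome held 44 to 66 and 304 to 640 counts per library, against 11117 to 25063 for SLC7A5. How reads that match several copies were assigned is not given in the sources used here, and an exchange of reads was not tested. The microRNA gene MIR6775 lies inside SLC7A5 and its 73 to 221 counts cannot be told apart from those of the host.

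The heavy chain SLC3A2 (chromosome 11, 62623484 to 62656355, plus strand) was lower with entinostat in BRCA1+ cells by a small amount. Its levels were 244 and 265 CPM in BRCA1+ control and 204 and 225 CPM in BRCA1+ entinostat libraries. The log2 difference was -0.25 ± 0.0626 (SE), or 1.19-fold (adjusted p = 0.0317, edgeR). That call was not kept with upper-quartile scaling (adjusted p = 0.0681), in a fit of only the BRCA1+ libraries (0.0509), or without the first (0.207) or second (0.0571) BRCA1+ entinostat, the second BRCA1+ control (0.174) or the first BRCA1-null control library (0.0526). BRCA1-null libraries had 277 and 274 CPM in DMSO and 244 and 240 CPM in entinostat. The lines did not differ past the threshold, with log2 differences of 0.11 ± 0.0622 (SE) in DMSO (adjusted p = 0.179) and 0.17 ± 0.0626 (SE) in entinostat (adjusted p = 0.0557, edgeR), the latter passing without the second BRCA1+ entinostat library (0.0484).

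Of the remaining light chains, SLC7A11 (chromosome 4, 139085248 to 139163503, minus strand) was higher in BRCA1-null cells under both treatments. It had 57.7 and 70.2 CPM in BRCA1+ control and 80.6 and 89.7 CPM in BRCA1-null control libraries. With entinostat it had 54.2 and 59.6 CPM in BRCA1+ and 74.3 and 76.9 CPM in BRCA1-null libraries. The lines did not overlap under either treatment. The log2 difference was 0.41 ± 0.0981 (SE, adjusted p = 0.00855) in DMSO and 0.41 ± 0.100 (SE, adjusted p = 0.0103) in entinostat, both 1.33-fold by edgeR. The call in DMSO was not kept without the first BRCA1+ control (adjusted p = 0.0571) or the second BRCA1-null control library (0.0633), nor that in entinostat without the first BRCA1+ entinostat library (0.0844). Entinostat did not change SLC7A11 past the threshold in BRCA1+ cells (log2 difference -0.17 ± 0.101, SE, adjusted p = 0.315, edgeR). The antisense gene SLC7A11-AS1, with 100 to 259 counts per library against 1719 to 4875 for SLC7A11, overlaps it in part, and the library kit does not mark strand.

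SLC7A7 had the same direction as SLC7A8 under entinostat, at 367 to 523 counts in BRCA1+ and 521 to 793 counts in BRCA1-null libraries. In BRCA1+ cells it had 11.23 and 7.996 CPM without the drug and 14.8 and 11.3 CPM with it. In BRCA1-null cells these levels were 11.5 and 9.75 CPM without and 16.9 and 14.03 CPM with entinostat. In BRCA1+ cells the treated and control libraries lay next to each other without overlapping, and the log2 difference of 0.43 ± 0.195 (SE, 95% interval -0.01 to 0.87) did not pass (adjusted p = 0.184, edgeR). The difference of 0.55 ± 0.181 (SE) in BRCA1-null cells is a description. The line differences of SLC7A7 did not pass the threshold, at 0.15 ± 0.194 (SE, adjusted p = 0.580) in DMSO and 0.27 ± 0.183 (SE, adjusted p = 0.276) in entinostat (edgeR). SLC7A6 (chromosome 16, 68298419 to 68335726, plus strand) ranged only from 38.1 to 49.1 CPM over the 8 libraries and was called in no comparison tested. It overlaps SLC7A6OS on the other strand at its end.

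Of the cationic transporters, SLC7A1 (chromosome 13, 30083551 to 30169825, minus strand) ranged from 209 to 291 CPM and SLC7A2 (chromosome 8, 17354597 to 17428077, plus strand) from 12.0 to 14.4 CPM, and neither was called in any comparison tested. The entinostat effect on SLC7A1 in BRCA1+ cells was -0.23 ± 0.0972 (SE, adjusted p = 0.146, edgeR), with libraries that did not overlap.

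Of the 2 neutral exchangers, SLC1A4 (chromosome 2, 65215579 to 65251000, plus strand) was lower in BRCA1-null cells under both treatments. It had 69.0 and 72.6 CPM in BRCA1+ control and 43.6 and 44.1 CPM in BRCA1-null control libraries, and 67.1 and 71.5 against 35.9 and 38.0 CPM in entinostat. The lowest BRCA1+ library lay far above the highest BRCA1-null library. The log2 difference was -0.69 ± 0.0663 (SE, adjusted p = 5.24e-05) in DMSO, or 1.62-fold, and -0.91 ± 0.0679 (SE, adjusted p = 1.54e-05) in entinostat, or 1.88-fold (edgeR). Entinostat left it close to its control level in BRCA1+ cells, with a log2 difference of -0.03 ± 0.0655 (SE, 95% interval -0.18 to 0.12, adjusted p = 0.819, edgeR). SLC1A5 (chromosome 19, 47278140 to 47291842, minus strand) had 228 and 230 CPM in BRCA1+ and 253 and 263 CPM in BRCA1-null libraries in DMSO, against 199 and 205 CPM and 189 and 213 CPM with the drug. Its line difference in DMSO, 0.18 ± 0.0634 (SE), lay at the threshold (adjusted p = 0.0502, edgeR) and passed it with upper-quartile scaling (0.0153), in a fit of only the DMSO libraries (0.0450) and without either BRCA1-null entinostat library (0.0264 and 0.0265). Its entinostat effect in BRCA1+ cells was -0.18 ± 0.0639 (SE, adjusted p = 0.0983, edgeR).

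Counted over the 10 genes, 0 rose and 2 fell (SLC7A5 and SLC3A2) with entinostat in BRCA1+ cells. Of all 17714 genes 8.15% were called higher and 6.00% lower there, and 14.1% in either direction. The higher genes made up 57.6% of the 2505 called, against 72.5% of 2418 with upper-quartile scaling, which moved the median of all genes to 0.0478. The 2 of 10 transporters called are near that background. The median log2 difference was -0.13 over the transporters and 0.00041 over all genes. Of the 9 genes tested between the lines in DMSO, SLC7A11 was higher and SLC7A5 and SLC1A4 were lower in BRCA1-null cells, with 21.1% and 21.0% of all genes called in those directions and 42.2% in either. In entinostat SLC7A11 was higher and SLC1A4 lower, with 20.5% and 18.9% of all genes called in those directions and 39.4% in either. In either direction the shares called between the lines, 3 of 9 and 2 of 9, do not exceed these backgrounds. With entinostat in BRCA1-null cells, the comparison that chose SLC7A8, no member was tested, and the log2 differences of the other 9 genes ran from -0.36 to 0.55. Of all genes 7.57% were called higher and 3.19% lower there, and 10.8% in either direction. The difference of the entinostat responses between the lines was called by edgeR for 0 of the 9 genes tested, with adjusted p from 0.967 to 1.00, and for 0% of all genes, although 827 genes had an unadjusted p under 0.05 and DESeq2 called 11 genes. Each comparison of the lines shares libraries with each comparison of entinostat with DMSO, and their values are therefore given side by side only.

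**Figure D2:**
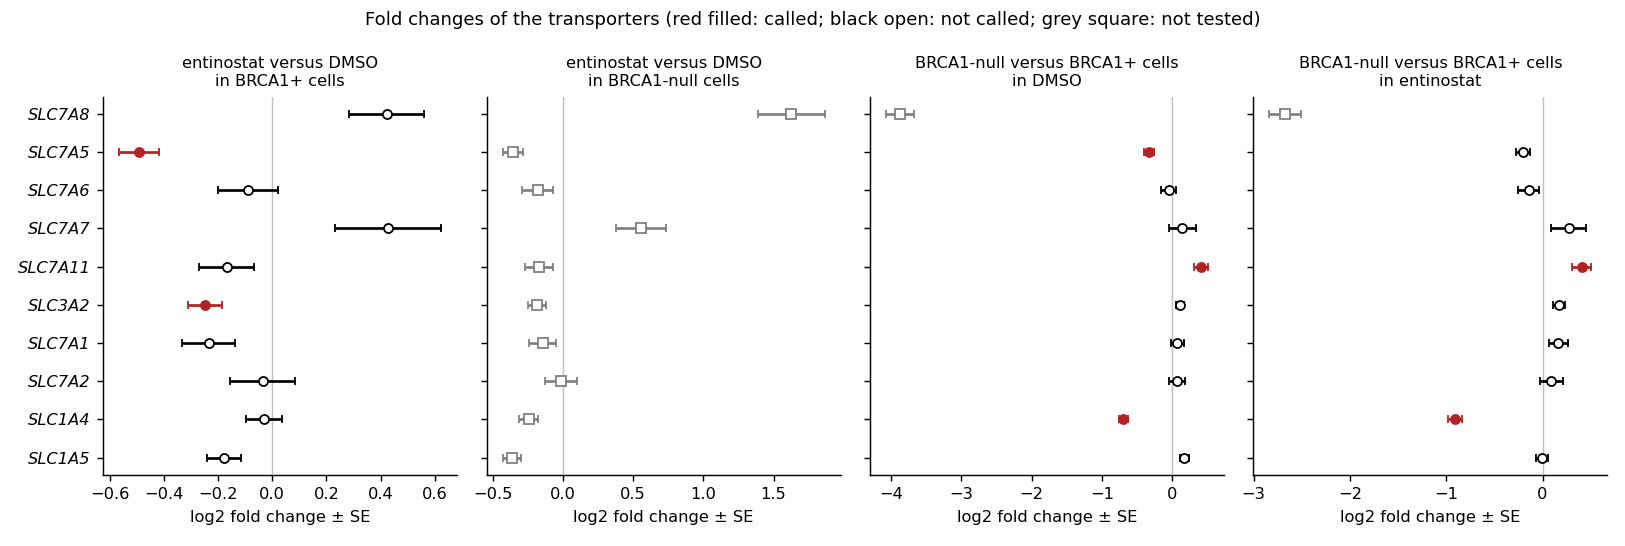
Log2 fold change with its SE (horizontal axes, a separate scale per panel) of the 10 transporters in 4 comparisons by edgeR, with red filled circles for called genes, black open circles for genes not called and grey squares for values given without a test. SLC7A8 stands at -3.88 and -2.67 between the lines, where no other transporter is below -0.91.

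Levels of different genes were compared as CPM per kb of the deposited gene length. In BRCA1+ control libraries the order was SLC7A5 (117 ± 5.16, SD, n = 2), SLC3A2 (87.7 ± 4.94), SLC1A5 (71.4 ± 0.472), SLC7A1 (35.8 ± 2.86), SLC1A4 (14.8 ± 0.530), SLC7A6 (7.34 ± 0.541), SLC7A8 (6.98 ± 1.11), SLC7A11 (6.63 ± 0.917), SLC7A7 (3.54 ± 0.842) and SLC7A2 (1.60 ± 0.0321 CPM per kb). Within this order SLC7A6, SLC7A8 and SLC7A11 overlapped with their neighbours and the others did not. With entinostat SLC7A8 was the 6th of 10 in BRCA1+ cells at 9.36 ± 0.569 CPM per kb (SD, n = 2). In BRCA1-null cells it was the lowest of the 10, at 0.478 ± 0.0802 CPM per kb in DMSO and 1.46 ± 0.354 in entinostat, where its libraries overlapped with those of SLC7A2 at 1.66 ± 0.160. SLC3A2 stood first in BRCA1-null cells, ahead of SLC7A5, at 94.8 ± 0.752 against 92.6 ± 0.547 CPM per kb in DMSO and 83.3 ± 0.959 against 72.2 ± 4.10 in entinostat (SD, n = 2). The ratio in DMSO was only 1.02. Such orders rest on 1 deposited length per gene, an uncertainty that the SD does not cover.

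SLC7A8 was thus a small part of the light chain transcripts in every group. Per kb, it made up 5.64% and 4.29% of the summed 5 light chains in BRCA1+ control libraries and 9.38% and 7.76% in BRCA1+ entinostat libraries. In BRCA1-null cells it made up 0.477% and 0.371% in DMSO and 1.88% and 1.25% in entinostat. SLC7A5 held 81.8% to 83.3% of the light chain sum in the 4 control libraries and 74.1% to 78.3% in the 4 entinostat libraries. The ratio of SLC7A5 to SLC7A8 per kb was 14.5 and 19.4 in BRCA1+ cells without the drug and 7.91 and 9.88 with it. In BRCA1-null cells it was 172 and 221 without the drug and 40.6 and 62.4 with it. The 4 groups did not overlap in this ratio, of which SLC7A8 is a part, so it is a description. The summed light chains were 1.58 and 1.64 times the heavy chain in BRCA1+ cells without the drug and 1.48 and 1.49 times with it, and in BRCA1-null cells they were 1.18 and 1.21 times without it and 1.08 and 1.16 times with it. These are ratios of RNA per deposited gene length, and they say nothing of the number of protein pairs.

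**Figure D3:**
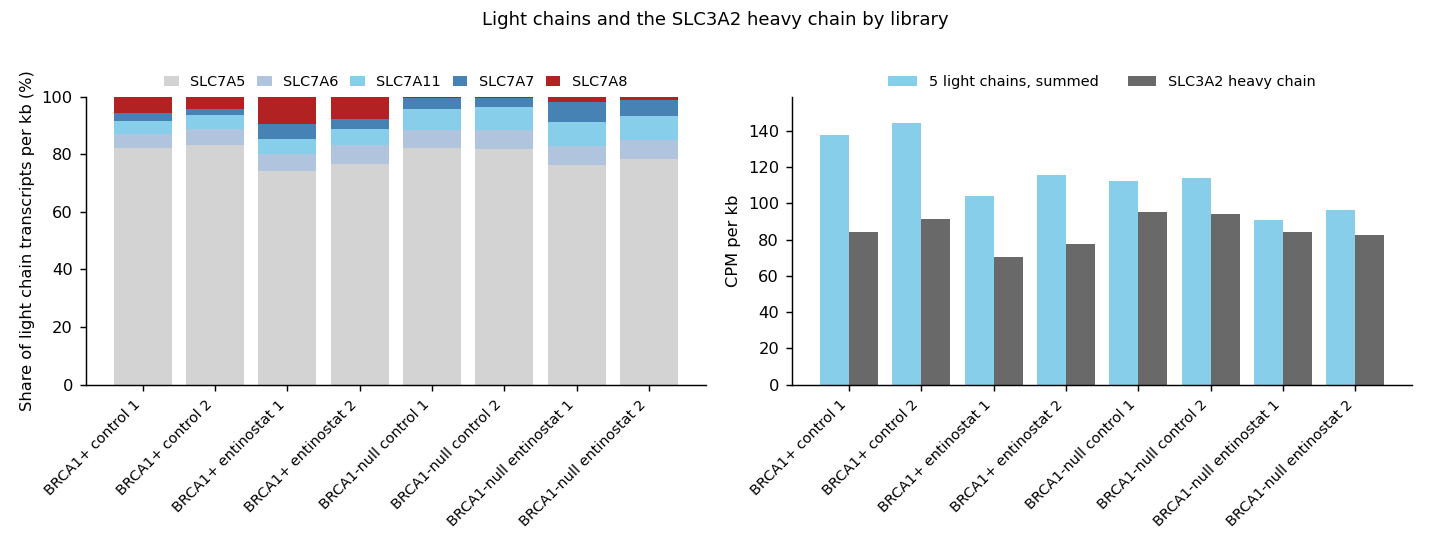
Left, the share of each of 5 light chain genes in their summed CPM per kb (%), stacked for each of the 8 libraries; right, the summed light chains and the SLC3A2 heavy chain in CPM per kb (bars from 0). The red SLC7A8 share is 4.29% to 9.38% in BRCA1+ and 0.371% to 1.88% in BRCA1-null libraries, and the bars for heavy and light chains are closest in BRCA1-null entinostat libraries.

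The genes around SLC7A8 did not share its line difference. On chromosome 14 from 23042432 to 23852869, that is from 200 kb before SLC7A7 to 200 kb after SLC7A8, 24 other genes were tested. Between the lines in DMSO, 13 of them were higher and 0 lower in BRCA1-null cells by edgeR (21.1% and 21.0% of all genes), with a median log2 difference of 0.27 and a range of -0.25 to 0.97, while SLC7A8 stood at -3.88. MIR4707 and HAUS4, which contains it, are both among the 13, and BCL2L2-PABPN1 overlaps BCL2L2 and PABPN1, so neighbours are not all separate. The nearest tested neighbour with lower coordinates, C14orf119, was higher by 0.33 (adjusted p = 0.00856), and that with higher coordinates, C14orf164, had a log2 difference of -0.25 (adjusted p = 0.520, edgeR). With entinostat in BRCA1+ cells 1 neighbour rose (CDH24, a cadherin, by 0.91, adjusted p = 0.00156) and 3 fell (RBM23 by a log2 difference of -0.64, AJUBA of -0.30 and PSMB5, a catalytic proteasome subunit, of -0.26), these 4 being named after their values were seen, against 8.15% higher and 6.00% lower of all genes. Without the first BRCA1+ entinostat library 2 neighbours were called, and the call of PSMB5 was lost in 5 of 14 alternative settings (adjusted p up to 0.148, edgeR). In the same window, 10 neighbours were higher and 0 lower in BRCA1-null cells in entinostat, against 20.5% and 18.9% of all genes.

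**Figure D4:**
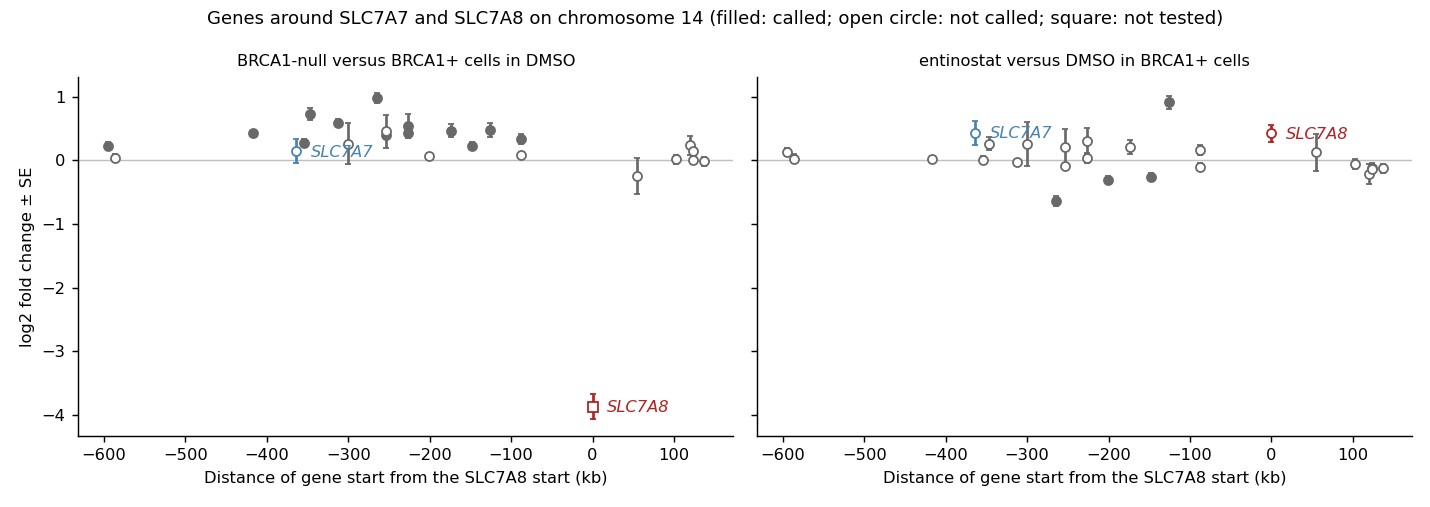
Log2 fold change with its SE (vertical axis) of the tested genes around SLC7A7 and SLC7A8, by the distance of each gene start from that of SLC7A8 in kb (negative towards lower coordinates), between the lines in DMSO (left) and with entinostat in BRCA1+ cells (right). The 24 neighbours lie between -0.25 and 0.97 at left, where SLC7A8 (red square, not tested) lies at -3.88.

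The genes whose pattern over the 8 libraries was most like that of SLC7A8 came from other parts of the genome. The 13117 genes averaging 1 or more on the log2 CPM scale were ranked by the root mean square difference of mean-centred log2 CPM, and the closest were NPR1 (0.351), a natriuretic peptide receptor, GDA (0.376), guanine deaminase, SLC1A1 (0.383), KCNJ12 (0.423) and KCNJ18 (0.449). KCNJ12 and KCNJ18 overlap in position and are near-identical potassium channel genes whose reads can be exchanged, so they count as uncertain. SLC1A1, the neuronal and epithelial glutamate and cysteine transporter EAAC1, had 19.8 ± 2.22 CPM in untreated and 25.2 ± 2.75 CPM in treated BRCA1+ cells, and 2.32 ± 0.504 CPM in untreated and 4.10 ± 0.861 CPM in treated BRCA1-null cells (SD, n = 2). Of the other 9 transporters examined, SLC1A4 was the most like SLC7A8, at a difference of 1.42 and position 871 of 13117. Ranked by Pearson's r over the 8 libraries, the 5 closest genes shared 0 with this choice.

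Further amino acid transporters, 41 genes of families such as SLC1, SLC6, SLC36, SLC38 and SLC43, were counted as context, and 26 of them passed the filter on low counts. Between the lines in DMSO 9 were higher and 6 lower in BRCA1-null cells, or 57.7% called against 42.2% of all genes, with a median of 0.09 against 0.01. The 9 include genes with low counts, named after their values were seen. SLC6A14 held 1 to 24, SLC1A2 13 to 65, SLC7A14 22 to 99 and SLC36A2 29 to 165 counts per library. SLC43A3, a member of the LAT3 family that carries purine bases, and SLC43A1 (LAT3), a facilitator for leucine and similar amino acids, were higher, by 3.50 ± 0.132 (SE, adjusted p = 4.07e-07) and 2.22 ± 0.138 (SE, adjusted p = 5.42e-06), and the neutral amino acid transporter SLC6A15 by 0.90 ± 0.0747 (SE, edgeR). SLC1A1 was lower by 8.64-fold, a log2 difference of -3.11 ± 0.186 (SE, adjusted p = 4.41e-06, edgeR). SLC38A9, the lysosomal arginine sensor, had a log2 difference of -1.04 ± 0.102 (SE), and SLC6A6, the taurine transporter, one of -0.76 ± 0.130 (SE). In entinostat 4 were higher and 7 lower in BRCA1-null cells (42.3% against 39.4% of all genes), with SLC43A3 at 3.44 and SLC1A1 at -2.62. Entinostat in BRCA1+ cells raised SLC43A1 by 0.94 ± 0.164 (SE, adjusted p = 0.00737), the glutamate transporter SLC1A3 by 0.47 and SLC6A15 by 0.42, and lowered the glycine transporter SLC6A9, at -0.46 ± 0.0836 (SE, adjusted p = 0.00888, edgeR), the 22 others not being called (15.4% called against 14.1% of all genes). In BRCA1-null cells, where 15.4% of the list and 10.8% of all genes were called, entinostat raised SLC43A1 by 0.40 (adjusted p = 0.0389), and 3 genes were lower, among them SLC6A9 at -0.55 (adjusted p = 0.00752) and SLC38A7 at -0.42 (adjusted p = 0.0463, edgeR). The third, SLC7A14, was at -0.92 (adjusted p = 0.0489, edgeR) on 22 to 99 counts per library and was named after its value was seen. Of 14 alternative settings, 12 lost the call of SLC38A7 (adjusted p up to 0.185), 11 that of SLC7A14 (up to 0.244) and 8 that of SLC43A1 (up to 0.150) in BRCA1-null cells. Leaving out any 1 of the 8 libraries gave 1 to 3 called genes of this list there in place of 4, and 2 in place of 4 in BRCA1+ cells without the second BRCA1+ entinostat library.

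Genes of the amino acid response through ATF4, which is known to act on SLC7A11, SLC7A5 and SLC3A2 among others, were tested for all 24 listed. With entinostat in BRCA1+ cells 1 rose (DDIT4 by 0.40) and 4 fell, or 20.8% called against 14.1% of all genes, with a median of -0.11 against 0.00041. ATF5, a transcription factor of this response, fell from 44.9 ± 0.669 to 21.5 ± 1.31 CPM (SD, n = 2), a log2 difference of -1.06 ± 0.0745 (SE, adjusted p = 0.000204, edgeR). STC2, a secreted glycoprotein, was lower at -0.42 and PSPH, an enzyme of serine synthesis, at -0.31. The fourth, XPOT, an exporter of transfer RNA, was at -0.19 and was named after its value was seen. The call of XPOT was lost in 10 of 14 alternative settings (adjusted p up to 0.217) and that of PSPH in 5 (up to 0.172). The 5 calls became 1 without the second BRCA1+ entinostat library, 2 without any 1 of the other 3 BRCA1+ libraries, and 3 with upper-quartile scaling. In BRCA1-null cells 0 rose and 2 fell with entinostat (8.33% called against 10.8%), ATF5 at -0.56 and PCK2 at -0.29, and 1 was called without the first BRCA1-null entinostat or the second BRCA1-null control library. Between the lines in DMSO 8 were higher and 1 lower in BRCA1-null cells (37.5% called against 42.2% of all genes), with PCK2, the mitochondrial phosphoenolpyruvate carboxykinase, at 1.04 ± 0.0698 (SE), VEGFA at 0.92, ATF5 at 0.59 and STC2 at -0.30. In entinostat 7 were higher and 1 lower (NUPR1 at -0.60), or 33.3% called against 39.4%. The 9 calls in DMSO became 5 without the first BRCA1+ control library, and the 8 in entinostat became 5 or 4 without the first or second BRCA1+ entinostat and 5 without the second BRCA1-null entinostat library.

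The next list held 32 genes for amino acid sensing upstream of the kinase complex mTORC1. It included MTOR, RPTOR and MLST8 of the complex itself and its regulators RHEB, TSC1 and TSC2. All were tested, and 3 rose and 4 fell with entinostat in BRCA1+ cells, or 21.9% called against 14.1% of all genes. The Rag GTPase RRAGD rose from 5.44 ± 0.200 to 11.9 ± 0.789 CPM (SD, n = 2), by 1.14 ± 0.147 on the log2 scale (SE, adjusted p = 0.00226, edgeR), GATSL3, an arginine sensor of the CASTOR family, by 0.91 and SESN3, a sestrin, by 0.70. MLST8, SEH1L and MTOR, a subunit of the complex, of its GATOR2 regulator and the kinase itself, were lower at -0.38, -0.33 and -0.27. LAMTOR5, a subunit of the Ragulator complex, was lower at -0.26 and was named after its value was seen. The call of LAMTOR5 was lost in 10 of 14 alternative settings (adjusted p up to 0.233) and that of MTOR in 7 (up to 0.165), and the 7 calls became 1 without the first BRCA1+ entinostat or the second BRCA1+ control library and 2 without the second BRCA1+ entinostat library. RRAGD was the 1 gene of this list called with entinostat in BRCA1-null cells (3.12% against 10.8%; 3 genes without the second BRCA1-null entinostat library), higher by 0.90 ± 0.127 (SE, adjusted p = 0.00445, edgeR). Between the lines in DMSO 4 were higher and 12 lower in BRCA1-null cells, including RRAGA at -0.99 ± 0.0884 and RRAGB at -0.82 ± 0.158 (SE), or 50% called against 42.2%, and in entinostat 3 were higher and 11 lower, or 43.8% against 39.4%. These 16 and 14 calls became 10 without the second BRCA1+ control and 8 without the second BRCA1+ entinostat library.

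Enzymes that use glutamine, cystine and arginine numbered 30, of which 28 were tested. With entinostat in BRCA1+ cells 2 rose and 3 fell, or 17.9% called against 14.1% of all genes. GLS2, the liver-type glutaminase, rose by 0.78 ± 0.126 (SE, adjusted p = 0.00558), while ODC1, the rate-limiting enzyme of polyamine synthesis from ornithine, was lower at -0.50 ± 0.0678 (SE, adjusted p = 0.00261, edgeR). The other gene that rose, GGT1, did so by 2.66 ± 0.401 (SE, adjusted p = 0.00440, edgeR) on 5 to 50 counts per library, and it was named after its value was seen. CAD, the glutamine-using enzyme of pyrimidine synthesis, was at -0.40 and GLUL, glutamine synthetase, at -0.34. In BRCA1-null cells GLS2 rose by 0.98 and GLUL fell by 0.42 on the log2 scale (7.14% called against 10.8%). Between the lines in DMSO 5 were higher (CTH, AGMAT, GLS2, ASL and NOS3) and 10 lower in BRCA1-null cells, or 53.6% called against 42.2%. ASL and NOS3 were named here after their values were seen, and NOS3 held 12 to 266 counts per library. GLUL had 123 ± 8.63 CPM in BRCA1-null against 268 ± 2.62 CPM in BRCA1+ cells (SD, n = 2), a log2 difference of -1.13 ± 0.0624 (SE, adjusted p = 2.94e-06, edgeR). The call of GLS2 between the lines was lost in 8 of 14 alternative settings (adjusted p up to 0.189, edgeR). In entinostat 4 were higher and 9 lower, or 46.4% called against 39.4%. The 5 calls with entinostat in BRCA1+ cells became 2 without the second BRCA1+ entinostat library, and the 15 in DMSO became 9 without the second BRCA1-null control library. No gene of the 4 lists, 106 tested genes in all, was called for a difference of the entinostat responses between the lines by edgeR.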

How the data were processed

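The values analysed were raw counts of reads per gene, which the authors deposited as 1 table of 8 libraries. The authors used TopHat 2 for alignment to hg19 and NGSUtils for counting; the poly(A) library kit does not mark strand, and how overlapping genes and reads with several positions were counted is not given in the sources used here. Groups and replicate numbers come from the sample titles. The 10 genes, the gene lists and the rule for named genes were chosen with earlier results of these data known, and the lists were compiled without a database. Listed genes named were the 3 largest called changes per direction and comparison whose log2 CPM averaged 1 or more.

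Genes were filtered with filterByExpr over the 4 groups (17714 kept), scaled by TMM and fitted with edgeR 4.0.16 in R 4.3.3 as 1 quasi-likelihood model with a mean per group, 4 residual degrees of freedom and two-sided tests. A gene was called at a Benjamini-Hochberg adjusted p under 0.05 over all 17714 genes. The 1 row without a gene name held 0 counts. A count of 3 corresponds to 0.0552 to 0.0946 CPM per library, which covers counting error only. The procedure was run on simulated counts in which a small set of genes above 1 CPM was changed in 1 group only. The simulation covered entinostat against DMSO in BRCA1+ cells. It did not cover the other comparisons or changes in genes at low counts. Alternatives were DESeq2 1.42.0, other scalings, no filter, the replicate number as a block, fits of only the groups compared, and leaving out each library. Promoter windows came from the GRCh37 (hg19) reference at the deposited gene starts, and 2 of 8 genes found in a RefSeq table had the same window there.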

Additional observations from a re-analysis of the deposited data

Results flagged for a closer look

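SLC6A14, a transporter of neutral and cationic amino acids among the 41 further transporters, was flagged by its values. It had opposite signs of the entinostat effect in the 2 lines and no overlap of treated and control libraries in either. These were the grounds for flagging it and are no support. Neither effect passed, at 2.16 ± 0.823 (SE, adjusted p = 0.112) in BRCA1+ and -2.04 ± 0.584 (SE, adjusted p = 0.0518, edgeR) in BRCA1-null cells. In BRCA1+ cells SLC6A14 held 3 and 1 counts without the drug and 7 and 10 with it. BRCA1-null libraries held 14 and 24 without and 7 and 1 with it. The entinostat effect in BRCA1-null minus that in BRCA1+ cells was -4.20 ± 1.01 on the log2 scale (SE), which did not pass the test of the difference itself (adjusted p = 0.967, edgeR). SLC6A14 was called higher in BRCA1-null than in BRCA1+ cells in DMSO, by 2.95 ± 0.688 on the log2 scale (SE, adjusted p = 0.00644, edgeR). The fold changes rest on counts that are close to the floor of 3 counts per library.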

How the results depend on the processing

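Of 690 recomputed values of the 10 transporters, 617 kept their direction and their side of the threshold (for values without a test, stayed within 1 SE), 9 lost the call, 21 gained one, 32 changed sign and 11 moved by more. Where values changed, the cause was not tested, and leaving out a library leaves 1 library in its group, assumed to vary like the others. The settings for the gene lists, neighbours and genes named later were chosen after seeing the data.

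With entinostat in BRCA1+ cells, leaving out 1 library gave 679 to 2414 called genes (2505 with all; 1277 and 943 without the first or second BRCA1+ control and 893 and 679 without the first or second BRCA1+ entinostat library), 1 to 3 transporters (2 with all), 7 to 21 genes of the 4 lists (21 with all; 10 without the second control or first entinostat library, 7 without the second entinostat library) and 2 to 4 neighbours (4 with all; 2 without the first entinostat library). Upper-quartile scaling called 1 transporter and turned SLC7A2 to 0.012 and SLC1A4 to 0.017, and leaving out 1 library put SLC1A4 at -0.082 to 0.017 and SLC7A6 at -0.27 to 0.061 (log2). Between the lines in DMSO, leave-one-out values were 35 to 56 list genes (53 with all; 35 without the second BRCA1+ control), and log2 differences of -0.0056 to 0.17 for SLC7A1, -0.040 to 0.20 for SLC7A2, -0.12 to 0.027 for SLC7A6, -0.089 to 0.40 for SLC7A7 and -0.51 to 0.11 for C14orf164. In entinostat they were 4529 to 6917 called genes (6973 with all; 4529 without the second BRCA1+ entinostat library), -0.0076 to 0.19 for SLC7A2, -0.30 to 0.030 for SLC7A6 and -0.096 to 0.074 for SLC1A5. With entinostat in BRCA1-null cells 1906 genes were called, 693 in a fit of only the groups compared and 512 to 1595 without 1 library (512 without the first entinostat, 520 without the second control, 947 without the second entinostat, 1120 without the first control, and 1242 and 1252 without the first or second BRCA1+ entinostat library). The list genes numbered 9, and 5 to 9 without 1 library (5 without the first BRCA1-null entinostat or the second BRCA1-null control library).

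For the difference of responses, DESeq2 called 11 genes and edgeR 0, also without any 1 library. Upper-quartile scaling gave SLC7A2 -0.021, and leaving out 1 library gave -0.031 to 0.20 for SLC7A1, -0.11 to 0.12 for SLC7A2, -0.25 to 0.083 for SLC7A6, -0.14 to 0.36 for SLC7A7, -0.16 to 0.12 for SLC7A11 and -0.016 to 0.13 for SLC3A2, none of them called. Ranking likeness by Pearson's r shared 0 of 5 genes.

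Same-numbered libraries deviated together with correlations of 0.0523 to 0.287, 2 of 6 under 0.1, so the numbers were not taken as a pairing. With the replicate number as a block, 4319 genes, 6 transporters and 34 list genes were called with entinostat in BRCA1+ cells, 6 transporters between the lines in entinostat, 3641 genes, 24 list genes and 5 neighbours (3 without it) with entinostat in BRCA1-null cells, and 1 gene for the difference of responses; SLC7A8 in BRCA1+ cells then had an adjusted p of 0.00405 (edgeR).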

Other observations

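Several other genes of the SLC7 family had few or no counts in these cells. SLC7A13, a partner of the rBAT heavy chain SLC3A1 in kidney, had 0 counts in all 8 libraries. SLC7A4, SLC7A9 and SLC7A10 had at most 2, 8 and 2 counts in any library. SLC3A1 itself had 322 to 520 counts per library. Of the further amino acid transporters counted as context, SLC38A2 and SLC38A1, the system A transporters SNAT2 and SNAT1, held the most counts. They had 33626 to 48594 and 26064 to 42460 counts per library, without scaling by gene length. Both genes were named after their values were seen.

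Ranked by Pearson's r of log2 CPM with SLC7A8 over the 8 libraries, as a description, the closest genes were MRC2 (0.998), PPP1R14A (0.998), TMEM14A (0.997), PDLIM1 (0.995) and TMEM37 (0.995). The points share their libraries and fall into 2 lines. PPP1R14A, an inhibitor of myosin phosphatase, had 35.5 ± 2.77 CPM in untreated and 51.4 ± 0.0864 CPM in treated BRCA1+ cells, and 5.78 ± 0.752 CPM in untreated and 13.0 ± 2.12 CPM in treated BRCA1-null cells (SD, n = 2).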
